A study of Mus musculus with 16 samples.

Results

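The heat shock protein and chaperone genes of mouse ventricular myocytes were compared between the transgenic line B3AR-Tg and wild-type (WT) littermates after pressure overload. Members were chosen by name from the deposited gene counts. They were the genes whose symbol began with Hspa, Hspb, Hspd, Hspe, Hsph, Dnaja, Dnajb, Dnajc, Pfdn, or Cct followed by a digit, together with Tcp1, Cryab and Bag3. Of 105 matching names, 89 were left without those ending in -ps, and 88 after Hspbap1 was set aside. A mean count of at least 10 over all animals was then required, which kept 76 genes of the 35682 in the table. The 12 genes left out were at or near 0 in these cells, and the highest of them, Dnajb3, had a mean of 1.56 counts. Just above the limit were Hspa12b, with a mean of 16.4 counts, and Dnajc17, with 29.6. The rule used names and the mean over both genotypes and no fold change, but it was set with earlier results of these data known.

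The line B3AR-Tg is named for the beta-3 adrenergic receptor. The labels call the WT animals littermates and give neither the promoter nor the species of the transgene, nor the age, sex or strain of the animals. Transverse aortic constriction (TAC), in which the aorta is narrowed so that the left ventricle pumps against a higher load, had been done in every animal 9 weeks earlier, so the groups are WT after TAC and B3AR-Tg after TAC, with 8 animals each and no animals without surgery. Cells were isolated by Langendorff perfusion and plated for an hour before RNA extraction, a handling that both genotypes shared.

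Chaperones help other proteins reach and keep their fold. HSP70 proteins bind exposed hydrophobic stretches in cycles of ATP hydrolysis, J proteins (the DNAJ families) bring substrates to them and start the hydrolysis, and nucleotide exchange factors such as the HSP110 proteins and BAG3 release them. Small heat shock proteins, abundant in heart muscle, hold unfolding clients without ATP, and the TRiC complex with its helper prefoldin folds actin and tubulin, while HSP60 and HSP10 form the chaperonin of the mitochondrial matrix. Heat shock factor 1 (HSF1) raises many of these genes under proteotoxic stress by binding heat shock elements, which are inverted repeats of a GAA unit.

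Genes with different matches to heat shock elements were chosen, among them Hspa1a and Hspa1b, which differ so little that their counts are uncertain. The upstream sequences of 3 heat-inducible genes and of the gene pair Hspd1 and Hspe1 are shown. They are 250 bases before the start of Hspa1a (chr17:34972157-34972406, minus strand), Hspa1b (chr17:34959239-34959488, minus strand) and Hsph1 (chr5:149636337-149636586, minus strand), and the 215 bases between the divergent starts of Hspd1 and Hspe1 (chr1:55087933-55088147, plus strand), all from RefSeq on GRCm38.p6, written 5′ to 3′. Capitals mark the matches to a heat shock element.
Hspa1a: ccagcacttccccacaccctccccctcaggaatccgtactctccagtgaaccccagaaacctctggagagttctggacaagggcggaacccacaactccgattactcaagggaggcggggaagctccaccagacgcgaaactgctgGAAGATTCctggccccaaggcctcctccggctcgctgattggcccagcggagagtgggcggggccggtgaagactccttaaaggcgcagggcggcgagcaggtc
Hspa1b: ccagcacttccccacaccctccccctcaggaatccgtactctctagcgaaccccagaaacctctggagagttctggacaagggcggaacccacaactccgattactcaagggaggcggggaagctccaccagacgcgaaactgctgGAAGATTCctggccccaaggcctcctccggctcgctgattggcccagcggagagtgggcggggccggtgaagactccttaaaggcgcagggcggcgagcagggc
Hsph1: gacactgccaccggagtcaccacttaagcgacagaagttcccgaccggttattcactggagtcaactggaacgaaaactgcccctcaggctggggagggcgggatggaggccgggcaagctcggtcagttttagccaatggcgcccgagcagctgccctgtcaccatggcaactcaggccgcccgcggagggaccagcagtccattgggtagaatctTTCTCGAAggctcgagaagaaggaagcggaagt
Hspd1-Hspe1: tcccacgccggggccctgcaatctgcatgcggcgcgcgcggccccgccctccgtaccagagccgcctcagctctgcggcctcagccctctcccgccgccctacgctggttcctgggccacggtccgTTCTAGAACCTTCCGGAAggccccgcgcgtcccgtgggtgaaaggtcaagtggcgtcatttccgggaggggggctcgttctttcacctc
The motif searched was GAANNTTC or TTCNNGAA for 2 units, and GAANNTTCNNGAA or TTCNNGAANNTTC for 3 units. These forms cover both strands, and every match of 3 units also holds matches of 2 units. Within 250 bases upstream of the start, a match of 3 units was present for 3 of the 63 members found in the RefSeq table (4.76%), namely Hspd1, Hspe1 and Dnajb6, against 0.514% of all 27025 genes in that table. A match of 2 units was present for 16 of the 63 (25.4%), against 14.6% of all genes. Hspd1 and Hspe1 share their interval, in which 2 overlapping matches of 3 units make up the run in capitals. The upstream 250 bases of Hspa1a and Hspa1b were 98.8% identical. A match is a description of the letters in this window only.

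Library totals were between 6926821 and 11584656 counts in WT and between 5985335 and 14365864 in B3AR-Tg. Levels below are CPM, which are counts divided by each library's TMM-adjusted total, given as mean ± SD over 8 animals, and fold changes are B3AR-Tg over WT. The mouse Adrb3 gene, which encodes the beta-3 receptor, had 0 to 4 counts in WT and 0 to 3 in B3AR-Tg, so it gave no check of the labels at this depth. A different gene, Adgrb3, had 0 to 3 counts in WT and 247 to 723 in B3AR-Tg, so its counts separated the labelled groups completely. How this signal relates to the transgene was not tested. Summed over 8 cardiomyocyte markers, levels were 37822 to 49441 CPM in WT and 45394 to 53056 CPM in B3AR-Tg. The 8 fibroblast markers summed to 45.9 to 189.8 CPM in WT and 12.01 to 65.1 CPM in B3AR-Tg, and 5 of the 7 with enough counts fell. Of the 8 endothelial markers 2 fell, with sums of 86.1 to 132 and 37.8 to 159 CPM. Of 6 mural and smooth muscle markers tested, Abcc9 rose. In WT its level was 263.6 to 436.3 CPM, while the next highest of these markers, Acta2, reached at most 67.4 CPM. Whether the Abcc9 signal came from mural cells or from myocytes was not tested, so its rise is not read as a change in mural cells. The 8 leukocyte markers summed to 4.15 to 14.3 CPM in WT and 0.706 to 5.99 in B3AR-Tg. Of these Ptprc, Cd68, Adgre1, C1qa, Cd3e and Cd79a were too low to test, and Cd3e was at 0 in every library. The mean level of the tested markers of these 4 groups, Abcc9 included, is the non-myocyte covariate used below. The covariate is named for its lists, and a myocyte share in it through Abcc9 was not tested. All 7 tested fibroblast and all 8 endothelial markers had log2 fold changes below 0, as did 4 of 6 mural and 2 of 2 leukocyte markers. The covariate thus goes in part with genotype, and where a call is lost with it the 2 cannot be told apart. In such bulk RNA, fewer cells of a type and less RNA per cell cannot be told apart. Each of 6 markers of cardiac load fell with the transgene. Among them Nppa, which encodes atrial natriuretic peptide, was at 563 ± 556 CPM in WT against 35.4 ± 36.5 in B3AR-Tg (edgeR adjusted p = 0.00362).

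Few chaperone transcripts differed detectably between the genotypes. Over all tested genes, 4.91% (537 of 10945) passed an edgeR adjusted p of 0.05, with 2.03% higher and 2.88% lower in B3AR-Tg. Of the 76 members, 1 passed (1.32%). This was Dnajc2, a J protein of the ribosome, which fell, and no member rose. Without adjustment, 8 members (10.5%) had a p-value under 0.05, against 19.3% of all tested genes. These were Dnajc2, Dnajc11, Dnajb6, Pfdn1, Hspa13, Hspb2, Hspb6 and Hspb8. With DESeq2 and with limma voom with sample weights the members past the threshold were Dnajc2 and Pfdn1. The members' median log2 fold change was −0.029, beside 0.0060 over all tested genes, and 31 lay above 0 and 45 below. Their median absolute log2 fold change was 0.095, against 0.15 for all tested genes. The 2 sets were not matched for level or spread. The members' median coefficient of variation (SD over mean) was 14.9% in WT and 15.9% in B3AR-Tg, against 19.3% and 18.7% for all tested genes. In no member did the 2 groups of animals separate completely, as they did for 0.448% of tested genes.

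The precision of these comparisons was also measured. For 59 of the 76 members (77.6%) the 95% interval of the fold change lay inside 1.5-fold in both directions, which held for 66.1% of all tested genes. For 73 members it lay inside 2-fold. The exceptions to the 2-fold bound were Hspa1a, Hspa1b and Hsph1. Summed over all members, levels were 9700.2 ± 492 CPM in WT against 9482 ± 1398 in B3AR-Tg. The members took 0.944% ± 0.0843 of the raw counts in WT and 0.974% ± 0.152 in B3AR-Tg.

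**Figure D1:**
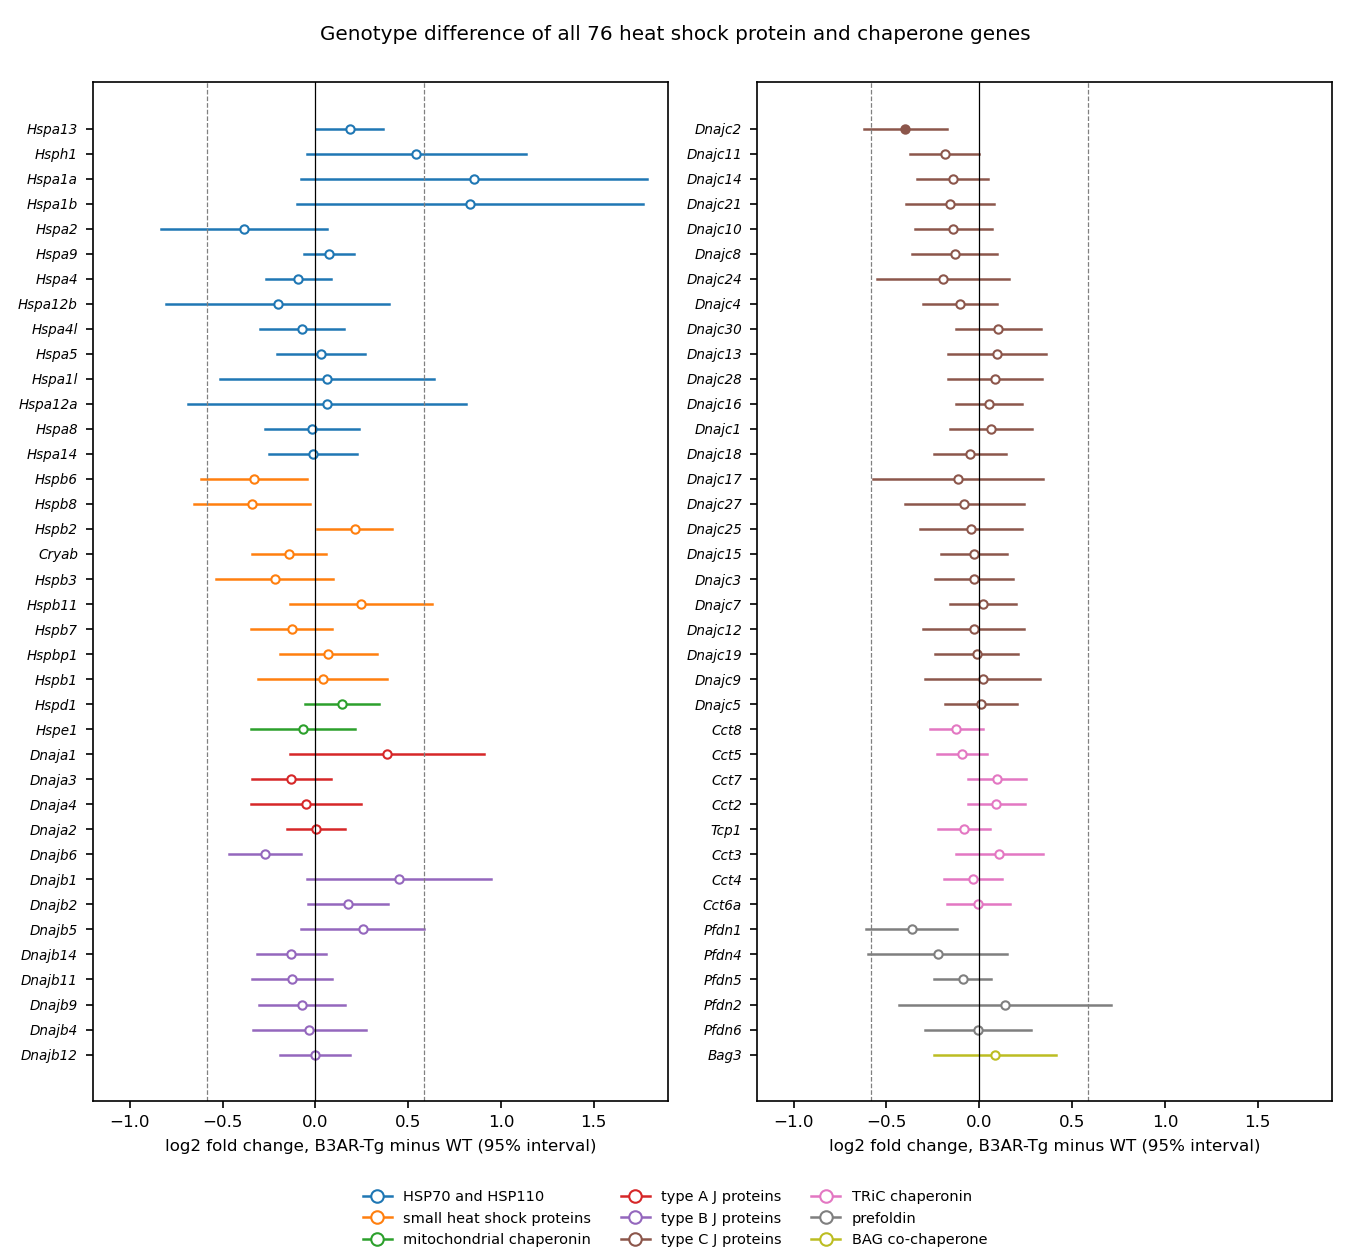
Log2 fold change of B3AR-Tg over WT for each of the 76 members, coloured by family, with the log2 fold change on the horizontal axis, bars for the 95% interval, dashed lines at 1.5-fold and a filled point where the adjusted p is under 0.05. Most intervals are short and cross 0, Dnajc2 is the member past an adjusted p of 0.05 with −0.40, and the widest intervals are those of Hspa1a and Hspa1b.

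The one change past the threshold was small. Dnajc2 (ENSMUSG00000029014) encodes a J protein that works with HSP70 on chains leaving the ribosome. It was at 26.5 ± 3.73 CPM in WT, from 21.1 to 31.3 with a median of 27.1, and 20.1 ± 3.01 CPM in B3AR-Tg, from 14.6 to 23.5 with a median of 20.01. All 8 transgenic animals were below the WT median, yet the groups overlapped, since the highest transgenic animal was above the lowest WT animal. The log2 fold change was −0.40 with a standard error of 0.11 and a 95% interval of −0.62 to −0.17 (edgeR adjusted p = 0.0359). This call did not hold when any 1 of 10 animals was left out (WT replicates 1, 2, 4, 6 and 7 and B3AR-Tg replicates 1, 2, 4, 5 and 8), although the log2 fold change stayed between −0.44 and −0.34. It was also lost with scaling by library size only (adjusted p = 0.0877), with no low-count filter (0.0568), and with the level of non-myocyte markers (0.292) or of immediate early genes (0.136) as a covariate, all by edgeR.

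Type C J proteins, the most diverse of the J families, formed the largest group with 24 members. Besides Dnajc2, no member passed the test. Their median log2 fold change was −0.039, from −0.40 to 0.10, and 23 of the 24 intervals lay inside 1.5-fold. With scaling by library size only, which moved the median of all tested genes to 0.084, the median of the family was 0.041. Dnajc15, a protein of the mitochondrial inner membrane, had the highest CPM of the family, with 70.7 ± 7.85 CPM in WT against 69.2 ± 7.82 in B3AR-Tg, and per transcript length Dnajc19 was above it in WT (62.99 against 11.4 CPM per kb). Dnajc11, an outer membrane protein tied to the organisation of mitochondrial cristae, was at 54.3 ± 6.03 CPM in WT against 47.7 ± 5.85 in B3AR-Tg, with every transgenic animal below the WT median but no call (log2 fold change −0.19, 95% interval −0.37 to −0.0025, edgeR adjusted p = 0.252). Dnajc3, an inhibitor of the kinase PERK in the endoplasmic reticulum, was at 50.3 ± 5.86 CPM in WT against 49.3 ± 8.14 in B3AR-Tg (edgeR adjusted p = 0.911). Dnajc5, the cysteine string protein of vesicles, was at 58.4 ± 8.83 CPM in WT against 58.8 ± 6.27 in B3AR-Tg (edgeR adjusted p = 0.972). Dnajc19, a part of the import motor of the inner membrane, was at 41.5 ± 7.42 CPM in WT against 41.02 ± 4.92 in B3AR-Tg (edgeR adjusted p = 0.963). The last 3 genes were taken as examples of place in the cell after their values were seen.

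None of the 9 type B J proteins passed the test, with a median log2 fold change of −0.033. Dnajb6 (ENSMUSG00000029131), a suppressor of protein aggregation whose human counterpart is mutated in a limb-girdle muscular dystrophy, was at 49.5 ± 6.59 CPM in WT, from 37.8 to 58.3 with a median of 50.3, and 41.02 ± 4.92 CPM in B3AR-Tg, from 34.2 to 47.2 with a median of 40.8. No transgenic animal reached the WT median, and the gene missed the threshold (log2 fold change −0.27, 95% interval −0.47 to −0.077, edgeR adjusted p = 0.102). It passed at an adjusted p of 0.0436 when WT replicate 7 was left out. Dnajb1 (ENSMUSG00000005483), the heat-inducible J protein of the cytosol, was at 35.7 ± 13.6 CPM in WT, from 21.5 to 61.7 with a median of 33.6, and 48.8 ± 23.1 CPM in B3AR-Tg, from 28.6 to 103 with a median of 42.9. Of the transgenic animals 7 lay above the WT median, B3AR-Tg replicate 5 was the highest with 103 CPM, and the difference did not pass (log2 fold change 0.45, 95% interval −0.046 to 0.95, edgeR adjusted p = 0.316). Dnajb4, with the highest CPM of the family, was at 258 ± 34.4 CPM in WT against 252 ± 85.5 in B3AR-Tg (log2 fold change −0.033, 95% interval −0.34 to 0.27, edgeR adjusted p = 0.936). Its transgenic mean was 223 ± 22.9 CPM without B3AR-Tg replicate 1.

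Of the 4 type A J proteins, close relatives of the bacterial DnaJ, none passed. Dnaja1, which is heat-inducible, was at 45.2 ± 16.1 CPM in WT, from 23.8 to 67.96 with a median of 45.02, and 58.97 ± 29.3 CPM in B3AR-Tg, from 29.9 to 125 with a median of 49.7. The mean differed by less than the spread between animals (log2 fold change 0.38, 95% interval −0.14 to 0.91, edgeR adjusted p = 0.427), and without B3AR-Tg replicate 1 the log2 fold change was 0.13 (edgeR adjusted p = 0.792). Dnaja2, with the highest CPM of the family, was at 178 ± 13.4 CPM in WT against 178 ± 18.6 in B3AR-Tg. Its interval, −0.16 to 0.16 on the log2 scale, was among the narrow ones. Dnaja3, the mitochondrial member, was at 100.4 ± 10.8 CPM in WT against 91.7 ± 15.7 in B3AR-Tg (edgeR adjusted p = 0.521).

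In the HSP70 and HSP110 family the abundant constitutive members did not differ detectably between genotypes, and the heat-inducible ones varied widely between animals. None of the 14 passed the test, and their median log2 fold change was 0.047. Hspa8 (ENSMUSG00000015656), the constitutive HSP70 of the cytosol, was at 2305 ± 238 CPM in WT, from 1998 to 2809.6 with a median of 2233, and 2278 ± 554 CPM in B3AR-Tg, from 1599 to 3456 with a median of 2253. It was the most abundant member per transcript length, at 963 CPM per kb in WT, and it did not differ detectably (log2 fold change −0.017, 95% interval −0.27 to 0.24, edgeR adjusted p = 0.962). Hspa9, the HSP70 of the mitochondrial matrix, was at 654 ± 42.4 CPM in WT against 687 ± 35.6 in B3AR-Tg, with a coefficient of variation (SD over mean) of 6.49% in WT and 5.18% in B3AR-Tg. The 95% interval of its log2 fold change was −0.063 to 0.21 (edgeR adjusted p = 0.578). Hspa5, the endoplasmic reticulum HSP70 known as BiP, was at 484 ± 93.2 CPM in WT against 494 ± 67.6 in B3AR-Tg (log2 fold change 0.031, 95% interval −0.21 to 0.27, edgeR adjusted p = 0.919). Hspa13, a microsomal relative, had the smallest p-value of the family and was at 18.1 ± 1.87 CPM in WT against 20.5 ± 1.88 in B3AR-Tg (log2 fold change 0.18, 95% interval 0.0058 to 0.36, edgeR adjusted p = 0.245). The HSP110 genes Hspa4 and Hspa4l had log2 fold changes of −0.093 and −0.074, with edgeR adjusted p of 0.583 and 0.760.

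Hspa1a and Hspa1b encode the heat-inducible HSP70, which muscle cells hold at low levels without stress. Hspa1a (ENSMUSG00000091971) was at 45.1 ± 20.5 CPM in WT, from 26.4 to 92.96 with a median of 38.7, and 81.8 ± 98.3 CPM in B3AR-Tg, from 22.3 to 315 with a median of 47.3. Hspa1b (ENSMUSG00000090877) was at 37.7 ± 18.3 CPM in WT, from 23.7 to 80.6 with a median of 34.2, and 67.5 ± 76.7 CPM in B3AR-Tg, from 18.2 to 244 with a median of 38.4. In both genes the transgenic mean was carried by B3AR-Tg replicate 1, at 315 and 244 CPM, while WT replicate 2 (92.96 and 80.6 CPM) and B3AR-Tg replicate 4 (112 and 108 CPM) were also high. The fitted log2 fold changes were 0.86 for Hspa1a, with a 95% interval of −0.076 to 1.79, and 0.83 for Hspa1b, with −0.099 to 1.77 (edgeR adjusted p = 0.308 and 0.324). Without that animal the transgenic means were 48.5 ± 30.4 CPM and 42.3 ± 30.8 CPM, and the log2 fold changes were 0.087 (edgeR adjusted p = 0.918) and 0.14 (edgeR adjusted p = 0.869).

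The transcripts of Hspa1a and Hspa1b were 99.23% identical over 2201 aligned bases, and how the counting split reads between them was not stated, so each gene's own value is uncertain. Their sum, which such a split does not touch, was 82.8 ± 38.5 CPM in WT against 149 ± 175 in B3AR-Tg. On mean log2 values the difference was 0.37 (exact permutation test over animals, two-sided p = 0.486, smallest p the test can give 0.000155). Without B3AR-Tg replicate 1 it was 0.014 (exact permutation p = 0.965). Hsph1 (ENSMUSG00000029657), a heat-inducible exchange factor for HSP70, was at 33.7 ± 12.3 CPM in WT, from 12.4 to 47.1 with a median of 35.5, and 48.8 ± 28.9 CPM in B3AR-Tg, from 26.5 to 116 with a median of 39.98. It missed the threshold (log2 fold change 0.54, 95% interval −0.044 to 1.13, edgeR adjusted p = 0.302), and without B3AR-Tg replicate 1 its log2 fold change was 0.22 (edgeR adjusted p = 0.649).

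**Figure D2:**
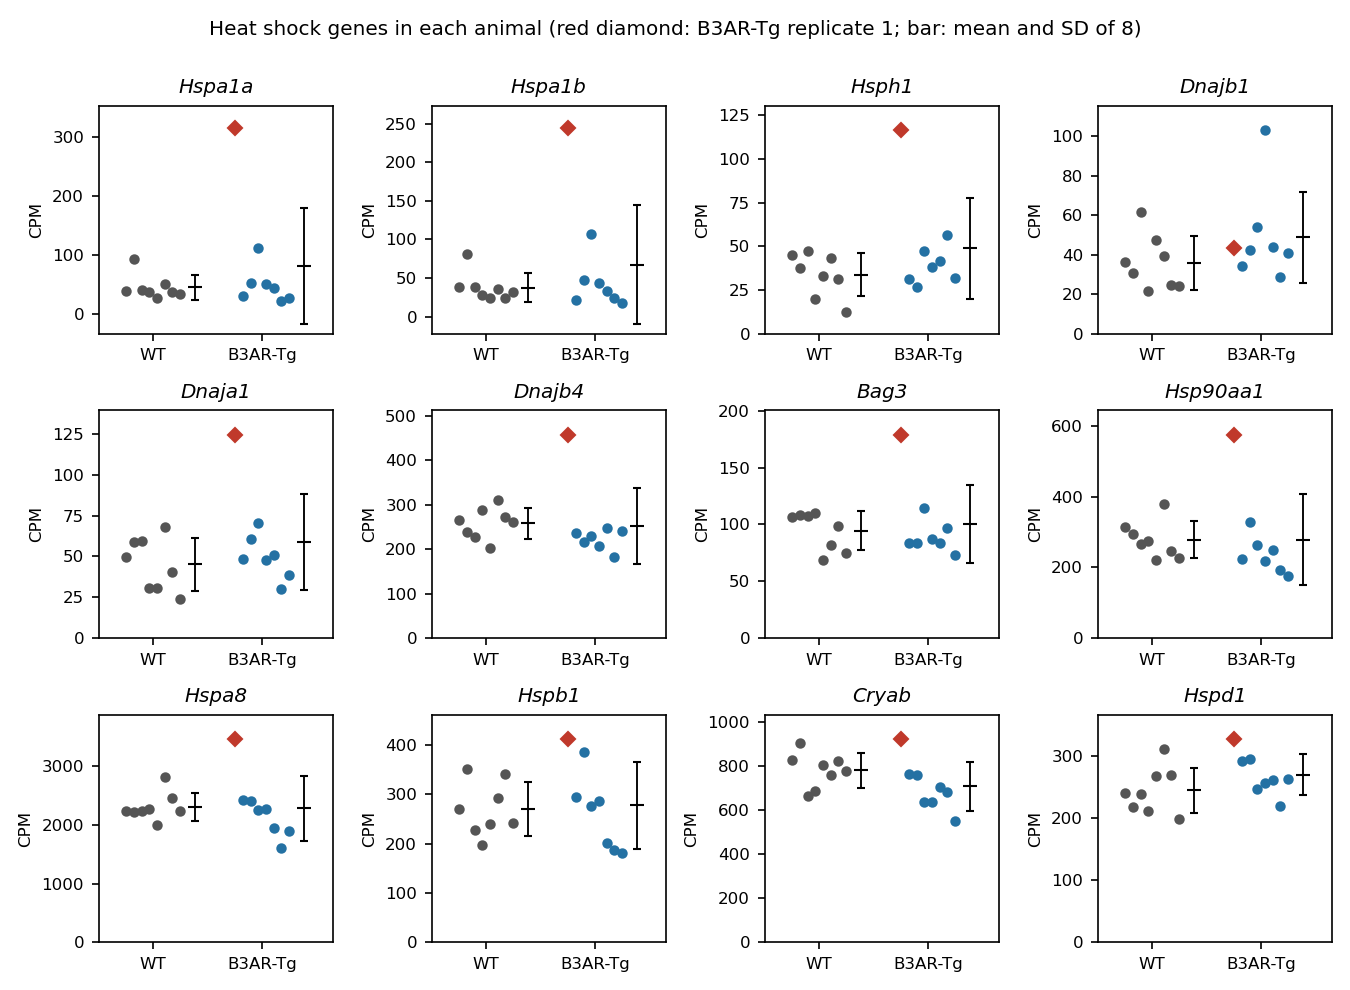
CPM of 12 heat shock genes in each animal on linear axes, 1 panel per gene, with points for animals, a red diamond for B3AR-Tg replicate 1, and a bar for the mean and SD of the 8 animals of a genotype. The groups overlap in every panel, and the diamond is the highest of 16 for Hspa1a at 315 CPM and for Hsph1 at 116 CPM.

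Among the 9 genes named as small heat shock proteins none passed the test, and the median log2 fold change was −0.13. By function, Hspbp1 is a nucleotide exchange factor for HSP70 and Hspb11 a component of intraflagellar transport, and without them the median over 7 genes was −0.14. Hspb7, a cardiac and muscle member that binds the sarcomere, was at 900.0 ± 112 CPM in WT, from 741 to 1069 with a median of 908, and 823 ± 143 CPM in B3AR-Tg, from 676 to 1058 with a median of 787 (log2 fold change −0.13, 95% interval −0.35 to 0.088, edgeR adjusted p = 0.532). Cryab (ENSMUSG00000032060), alpha-B crystallin, which guards desmin filaments and titin, was at 782 ± 78.00 CPM in WT, from 665 to 907 with a median of 792, and 709 ± 111 CPM in B3AR-Tg, from 554 to 925 with a median of 696. In B3AR-Tg, 1 of the 8 animals was above the WT median of Cryab, and the difference did not pass (log2 fold change −0.14, 95% interval −0.34 to 0.057, edgeR adjusted p = 0.444). Without B3AR-Tg replicate 1, the highest animal, the transgenic mean of Cryab was 679 ± 74.9 CPM and the log2 fold change was −0.20 (edgeR adjusted p = 0.220).

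Hspb6 and Hspb8 had the largest log2 differences of the family, both with lower transgenic means. Hspb6, HSP20, a target of protein kinase A in heart muscle, was at 172 ± 31.8 CPM in WT, from 138 to 238 with a median of 165, and 137 ± 34.96 CPM in B3AR-Tg, from 104 to 204 with a median of 123. Of the transgenic animals 6 lay below the WT median (log2 fold change −0.33, 95% interval −0.61 to −0.044, edgeR adjusted p = 0.185), and of the alternatives run the gene passed when B3AR-Tg replicate 7 was left out (edgeR adjusted p = 0.0425). Hspb8, HSP22, the partner of BAG3 in chaperone-assisted autophagy, was at 535 ± 83.4 CPM in WT, from 432 to 649 with a median of 526, and 423 ± 119.8 CPM in B3AR-Tg, from 251 to 599 with a median of 415, again with 6 transgenic animals below the WT median (log2 fold change −0.34, 95% interval −0.65 to −0.028, edgeR adjusted p = 0.218). Hspb2, which lies beside Cryab in the genome, was at 28.2 ± 3.49 CPM in WT against 32.7 ± 4.58 in B3AR-Tg (log2 fold change 0.21, 95% interval 0.0089 to 0.41, edgeR adjusted p = 0.239). It was chosen after its values were seen, as the third member with an unadjusted p under 0.05. Hspb1, HSP27, which binds actin filaments, was at 270.5 ± 54.9 CPM in WT, from 197 to 352 with a median of 256, and 278 ± 87.7 CPM in B3AR-Tg, from 180.4 to 412 with a median of 281 (log2 fold change 0.039, 95% interval −0.31 to 0.39, edgeR adjusted p = 0.931). Bag3 (ENSMUSG00000030847), which links HSP70 to small heat shock proteins at the Z-disc, was at 94.6 ± 16.8 CPM in WT, from 69.04 to 110.3 with a median of 102, and 100.2 ± 34.1 CPM in B3AR-Tg, from 72.7 to 179 with a median of 85.4 (log2 fold change 0.082, 95% interval −0.25 to 0.41, edgeR adjusted p = 0.823). Leaving out B3AR-Tg replicate 1 turned the sign of the Bag3 log2 fold change to −0.088 (edgeR adjusted p = 0.738).

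Neither gene of the mitochondrial chaperonin passed the test or had an unadjusted p under 0.05. Hspd1 (ENSMUSG00000025980), HSP60, was at 245 ± 36.9 CPM in WT, from 199 to 312 with a median of 241, and 270.4 ± 33.4 CPM in B3AR-Tg, from 219.6 to 328 with a median of 262 (log2 fold change 0.14, 95% interval −0.058 to 0.35, edgeR adjusted p = 0.443). Hspe1 (ENSMUSG00000073676), its lid HSP10, was at 69.1 ± 10.4 CPM in WT, from 57.9 to 85.01 with a median of 68.7, and 65.8 ± 16.7 CPM in B3AR-Tg, from 46.00 to 90.4 with a median of 64.2 (log2 fold change −0.068, 95% interval −0.35 to 0.21, edgeR adjusted p = 0.830). Both 95% intervals lay inside 1.5-fold, and the 2 genes share the upstream sequence with matches to heat shock elements shown above.

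By the median over its genes, TRiC varied least between animals of all the families. None of its 8 subunits passed the test, all 8 intervals lay inside 1.5-fold, and the log2 fold changes ran from −0.12 to 0.11 with a median of −0.019. Tcp1, the subunit for which the complex was first named, was at 204 ± 14.4 CPM in WT, from 183 to 226 with a median of 202, and 193 ± 13.5 CPM in B3AR-Tg, from 175 to 213 with a median of 195 (log2 fold change −0.081, 95% interval −0.22 to 0.059, edgeR adjusted p = 0.544). Cct8, with the smallest p-value of the family, was at 108 ± 8.84 CPM in WT against 98.99 ± 6.32 in B3AR-Tg (log2 fold change −0.12, 95% interval −0.26 to 0.019, edgeR adjusted p = 0.339). The median coefficient of variation over animals was 7.69% in WT and 9.66% in B3AR-Tg for the subunits, against 19.3% and 18.7% for all tested genes and 14.9% and 15.9% for all members. This spread includes counting error, which is larger at low counts. Over the subunits it ranged from 4.20% to 10.2% in WT and from 6.39% to 21.9% in B3AR-Tg, where Cct3 was the highest. Per transcript length, the 7 subunits with a length lay between 32.5 CPM per kb for Cct7 and 83.3 CPM per kb for Tcp1 in WT, a ratio of 2.57, and the same ratio was 2.27 in B3AR-Tg.

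**Figure D3:**
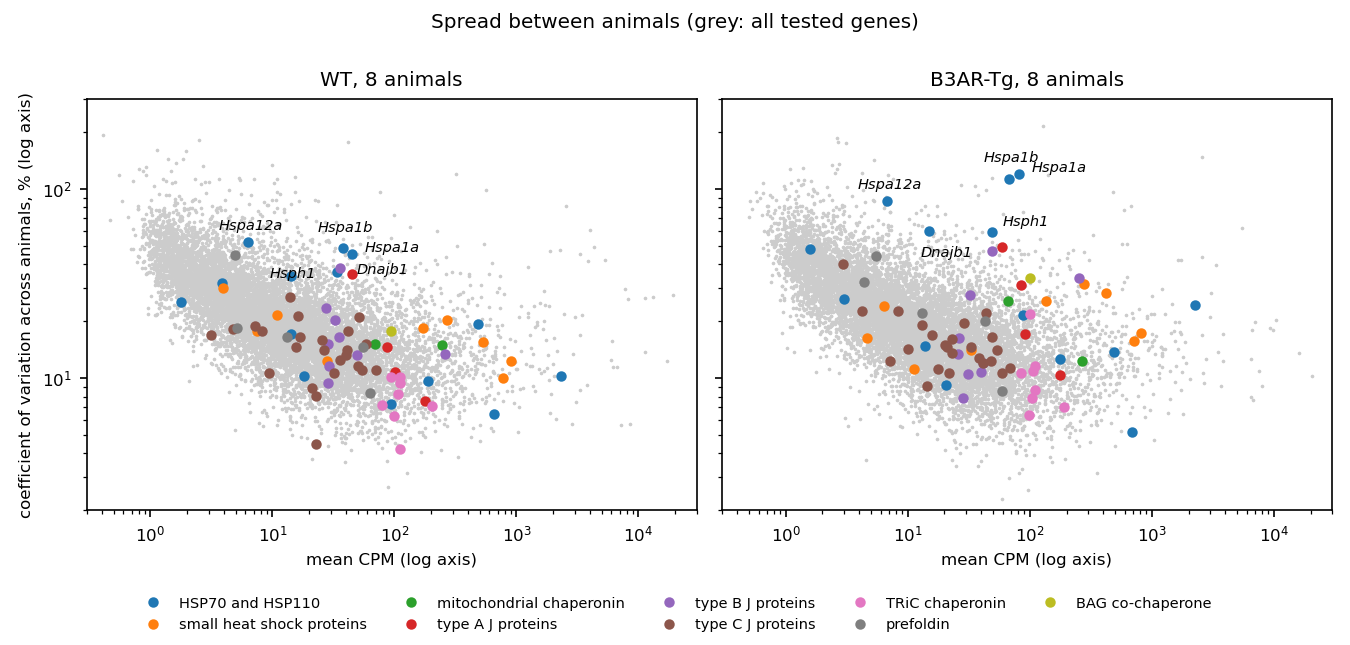
Coefficient of variation over the 8 animals (percent, log axis) against mean CPM (log axis), 1 panel per genotype, with members coloured by family and all tested genes in grey. TRiC subunits lie low, except Cct3 at 21.9% in B3AR-Tg, with medians of 7.69% in WT and 9.66% in B3AR-Tg. Hspa1a and Hspa1b lie above 100% in B3AR-Tg.

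Prefoldin passes unfolded actin and tubulin to TRiC. None of the 5 members passed the test, and the median log2 fold change was −0.089. Pfdn1 (ENSMUSG00000024346) was at 55.03 ± 8.07 CPM in WT, from 43.3 to 63.1 with a median of 58.3, and 42.7 ± 8.60 CPM in B3AR-Tg, from 35.1 to 55.9 with a median of 39.6. Every transgenic animal was below the WT median, and the gene missed the threshold (log2 fold change −0.36, 95% interval −0.61 to −0.12, edgeR adjusted p = 0.0772). It passed with DESeq2 (adjusted p = 0.0450), with limma voom and sample weights (adjusted p = 0.0248) and with the level of non-myocyte markers as a covariate (edgeR log2 fold change −0.69, adjusted p = 0.0371). With that covariate the family median was −0.24. Pfdn5, with the highest CPM of the family, was at 63.4 ± 5.29 CPM in WT against 59.6 ± 5.07 in B3AR-Tg (log2 fold change −0.089, 95% interval −0.24 to 0.064, edgeR adjusted p = 0.540).

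Compared per transcript length within WT, Cryab followed Hspa8 with 873 CPM per kb, and Hspb7, Hspb1 and Hspb8 came next with 325, 299.5 and 295 CPM per kb. Hspa9 was at 214, Hspa5 at 154, Hspb6 at 126 and Hspd1 at 101 CPM per kb. The inducible genes Hspa1a and Hspa1b were at 15.2 and 13.4 CPM per kb, and the lowest was Hspa12b at 0.525. Lengths were those of GENCODE M21 transcripts and were found for 75 members, all but Cct6a.

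A single animal stood apart in the heat-inducible genes, a pattern noticed in the values. B3AR-Tg replicate 1 was the highest of the 16 animals for 20 of the 76 members (26.3%), against 735 of all 10945 tested genes (6.72%). High ranks were not particular to chaperones. This animal was also the highest for 3 of 8 cardiomyocyte markers, 4 of 17 immediate early genes and 4 of 11 genes of the BAG3 route listed below. It was the highest for 0 of 7 fibroblast, 0 of 8 endothelial and 0 of 6 load markers. It lay over 0.5 on the log2 scale above the median of the other 7 transgenic animals for 15 members (19.7%), against 7.79% of all tested genes. In a list of 20 textbook HSF1 targets, many of them members, it was the highest of 16 for 17 genes, and its median deviation was 0.57. The list summed to 9210 CPM in this animal, while the median of the transgenic group was 5836 CPM and WT animals ranged from 5675 to 6953 CPM. Its library was the largest, with 14365864 counts. Immediate early genes, which respond to handling and to stimulation, summed to 1527 CPM in it, 1463.9 CPM in B3AR-Tg replicate 5 and 1281 CPM in B3AR-Tg replicate 4, while the other transgenic animals were at 678 to 944 CPM and WT animals at 652 to 943 CPM. As the mean of centred log2 CPM over these genes, B3AR-Tg replicate 1 was at 0.41, below replicates 5 (0.65) and 4 (0.64). The same mean over the HSF1 targets was 0.81 in replicate 1, −0.021 in replicate 5 and 0.13 in replicate 4. The part of depth or handling in these values was not tested.

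**Figure D4:**
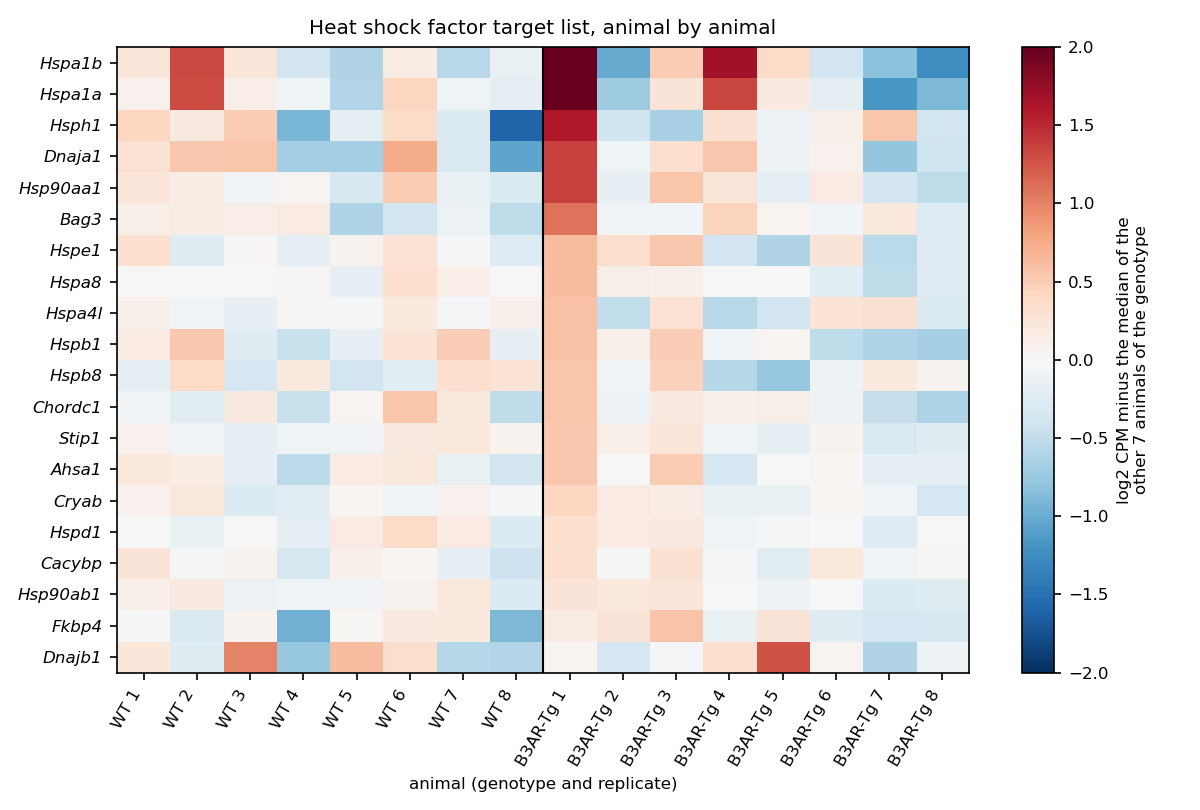
Deviation of log2 CPM from the median of the other 7 animals of the same genotype, for 20 HSF1 target genes in rows and 16 animals in columns, on a colour scale in log2 units. B3AR-Tg replicate 1 is above its group in most rows, with 14 of 20 genes over 0.5 and a median of 0.57, and the next highest column, B3AR-Tg replicate 3, has 5 genes over 0.5.

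No HSF1 target passed the test between genotypes. Of the 20 genes 0 passed with edgeR, DESeq2 or limma voom with sample weights. An unadjusted p under 0.05 was reached by 2 (10%), against 19.3% of all tested genes (2117 of 10945). This count was 7 with scaling by library size only, where 2307 of 10945 tested genes reached it. It was 8 with no low-count filter (3274 of 20301 tested genes) and 0 with the immediate early covariate (1601 of 10945). As fitted, 15 log2 fold changes were above 0 with a median of 0.11. Without B3AR-Tg replicate 1 the median was 0.05 and 0 of the 76 members passed, against 4.52% of all tested genes. Hsf1 itself was at 10.5 ± 1.86 CPM in WT against 10.8 ± 1.28 in B3AR-Tg (log2 fold change 0.039, 95% interval −0.21 to 0.29, edgeR adjusted p = 0.900). Hsp90aa1, the inducible HSP90, was at 279 ± 51.9 CPM in WT, from 222 to 380.2 with a median of 272, and 279 ± 129 CPM in B3AR-Tg, from 175 to 577 with a median of 237. Its log2 fold change was 5.96e-04 with a 95% interval of −0.40 to 0.40, and −0.23 (edgeR adjusted p = 0.359) without B3AR-Tg replicate 1. Hsp90ab1, the constitutive form, was at 922 ± 83.3 CPM in WT against 952 ± 138 in B3AR-Tg (log2 fold change 0.046, 95% interval −0.14 to 0.24, edgeR adjusted p = 0.829). With the level of immediate early genes as a covariate, the log2 fold changes of Hspa1a and Hspa1b were −0.059 and −0.040. This covariate also goes in part with genotype, as 14 of 17 immediate early genes had log2 fold changes above 0. Where a call or a difference is lost with it, the 2 cannot be told apart.

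Whether heat-inducible genes moved with Dnajb1 from animal to animal was examined within each genotype. Dnajb1 itself was at 43.5 CPM in B3AR-Tg replicate 1, rank 6 of the 16 animals, while 17 of the 20 HSF1 targets were highest there. Pairs of the other heat-inducible genes with each other were not computed. Of 22 pairs, 14 had a Pearson r above 0 and 0 passed after adjustment, with 1 under 0.05 unadjusted. That pair was Hsph1 in WT (r = 0.71, exact permutation p = 0.0438; rho = 0.81, exact permutation p = 0.0218), with an adjusted p of 0.67. Without the 2 animals farthest from the median of Dnajb1, r was 0.61. Fos, the immediate early gene, had r = 0.66 with Dnajb1 in B3AR-Tg (exact permutation p = 0.0609; rho = 0.62, exact permutation p = 0.115; adjusted p = 0.67), and r was 0.31 without 2 animals.

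Chaperone genes and their regulators outside the naming rule gave 2 changes among 84 tested (2.38%), against 4.91% of all tested genes. Their median log2 fold change was 0.016. Unc45b, the chaperone that folds the myosin head in muscle, was at 113 ± 25.1 CPM in WT, from 76.1 to 145 with a median of 121, and 166 ± 50.6 CPM in B3AR-Tg, from 125 to 277 with a median of 146. All 8 transgenic animals were above the WT median, and the gene rose (log2 fold change 0.56, 95% interval 0.23 to 0.90, edgeR adjusted p = 0.0464). B3AR-Tg replicate 1 was the highest, and without it the log2 fold change was 0.42 (edgeR adjusted p = 0.0833). The call was likewise lost without any 1 of WT replicates 1, 2, 4, 5, 6 and 8 or B3AR-Tg replicates 2, 3, 5 and 8, and with either covariate (edgeR adjusted p = 0.325 for non-myocyte markers and 0.199 for immediate early genes), limma voom with sample weights (adjusted p = 0.0637) or a minimum count of 50 (edgeR adjusted p = 0.0528). Ero1a, the oxidase that reloads disulfide isomerases in the endoplasmic reticulum, was at 24.4 ± 8.36 CPM in WT, from 18.6 to 43.5 with a median of 21.1, and 16.2 ± 2.56 CPM in B3AR-Tg, from 12.2 to 20.8 with a median of 15.96. It fell (log2 fold change −0.60, 95% interval −0.93 to −0.26, edgeR adjusted p = 0.0340), with all transgenic animals below the WT median, and the call was lost without any 1 of WT replicate 4 and B3AR-Tg replicates 2, 5, 6 and 8, or with scaling by library size only (edgeR adjusted p = 0.0880), the non-myocyte covariate (0.478) or the immediate early covariate (0.0656). Of the sublists, 22 genes of HSP90 and its co-chaperones had a median log2 fold change of 0.11, 20 regulators of HSP70 had −0.05, 18 genes of the endoplasmic reticulum had 0.01, 10 mitochondrial proteases and chaperones had 0.10, and 14 folding factors had −0.13. In the 3 lists other than those of Unc45b and Ero1a 0 genes passed the edgeR test. An unadjusted p under 0.05 was reached by 1 regulator of HSP70 (5%), 0 mitochondrial genes and 3 folding factors (21.4%). Over all tested genes that share was 19.3%.

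Genes of the route by which BAG3 and its partners hand muscle proteins to autophagy, clients among them, were also listed. Of the 11 tested genes of this list 0 passed in edgeR, and 1 had an unadjusted p under 0.05 (9.09%). Over all tested genes the shares were 4.91% and 19.3%. The median log2 fold change of the list was 0.10. Des, which encodes desmin, was at 1667 ± 484 CPM in WT against 1213 ± 164 in B3AR-Tg (log2 fold change −0.46, 95% interval −0.77 to −0.15, edgeR adjusted p = 0.0783). Of 17 immediate early genes, 14 had a log2 fold change above 0, against 5595 of all 10945 tested genes, and the median was 0.30. Past the threshold was 1 gene of this list (5.88%), against 4.91% of all tested genes. This was Nr4a1, a nuclear receptor gene, at 20.1 ± 4.27 CPM in WT against 38.6 ± 13.4 in B3AR-Tg (log2 fold change 0.93, 95% interval 0.52 to 1.33, edgeR adjusted p = 0.01002).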

How the data were processed

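RNA was measured in adult ventricular myocytes of 16 mice, 8 WT and 8 B3AR-Tg. Per the labels' protocols, stranded libraries were made from 500 ng of RNA after ribosomal depletion and sequenced paired-end. The authors deposited whole-number counts per gene without normalization. Per the submitters' processing notes, Salmon and GRCm39 were used. The Salmon version, the annotation release and the rounding are not given in the sources used here. Coordinates on GRCm39 are therefore not printed, and the sequences shown come from RefSeq on GRCm38.p6. Groups and replicate numbers were taken from the sample titles, which call the animals biological replicates. In 56 within-genotype comparisons of libraries, the lowest chi-square per gene was 6.21, so every library was kept.

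From the counts as deposited, genes were tested in R 4.3.3 by edgeR 4.0.16 (quasi-likelihood, glmQLFTest) with TMM scaling, filterByExpr (minimum count 10, minimum total count 15) and genotype as the only term. The Benjamini-Hochberg adjustment ran over all 10945 tested genes, the threshold was 0.05, and all tests were two-sided. Intervals of 95% use the test's own degrees of freedom. CPM are TMM-scaled, and log2 CPM used a prior count of 2. Correlations and the summed pair were tested by exact permutation (scipy 1.17.1), and transcripts were aligned with BLAST 2.17.0. Alternatives covered scaling, filter, DESeq2 1.42.0, limma 3.58.1 voom with sample weights, a replicate block, covariates, thresholds and leaving out each animal.

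Members and gene lists were chosen with earlier results of these data known. Named genes were members past the threshold, the smallest p and highest level of each family, a set list of well-known members, and genes of other lists past the threshold. The other genes named were chosen after their values were seen. Added after seeing the data were the small heat shock median without Hspbp1 and Hspb11, the sum of Hspa1a and Hspa1b, the counts without B3AR-Tg replicate 1, and the alternatives for the other chaperone and HSF1 lists. The test was checked on simulated data for these 10945 genes with 200 changed. Reads were not analysed here.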

Additional observations from a re-analysis of the deposited data

Results flagged for a closer look

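Each of 66 groups of 8 animals (the named genes in each genotype, as CPM) was searched for an animal whose gap to the nearest other animal as a share of the group's range exceeded Dixon's 95% critical value. For normally distributed values chance gives about 1 in 20 such groups, 3.3 here. The groups share animals and the genes were chosen with earlier results of these data known, so an excess over this number was not tested. In all 14 were found on CPM and 4 on log2 CPM, and 8 of the 14 were in B3AR-Tg replicate 1.

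In B3AR-Tg replicate 1, Hspa8 was at 3456 CPM, with the nearest transgenic animal at 2423. Hspa1a was at 315 CPM there with the nearest at 112, and Hspa1b at 244 with the nearest at 108. Hsph1 was at 116 CPM with the nearest at 56.3, and Hsp90aa1 at 577 with the nearest at 328. The J protein genes Dnaja1 and Dnajb4 were at 125 and 457 CPM, with the nearest at 70.5 and 248. Bag3 was at 179 CPM with the nearest at 114.

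Among WT animals, replicate 2 was at 93.0 CPM for Hspa1a (nearest 50.9) and at 80.6 CPM for Hspa1b (nearest 38.4). WT replicate 6 was at 22.2 CPM for Hspa13 (nearest 18.5), and WT replicate 8 at 43.5 CPM for Ero1a (nearest 28.7). B3AR-Tg replicate 5 was at 103 CPM for Dnajb1 (nearest 53.8), and B3AR-Tg replicate 7 at 120.3 CPM for Nppa (nearest 50.3).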

How the results depend on the processing

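Each alternative changed 1 choice of the comparison, except that limma voom with sample weights changed both the test and the weight of each animal. No member was higher in B3AR-Tg under any of them. The number of lower members, 1 in the comparison as reported, was 0 with scaling by library size only, without the low-count filter, with the replicate block, with the immediate early covariate and at an adjusted p of 0.01. It was 2 with DESeq2, with limma voom with sample weights and at an adjusted p of 0.1, Dnajc2 and Pfdn1 each time. It was 1 with the non-myocyte marker covariate, where the gene was Pfdn1 in place of Dnajc2. Leaving out 1 animal at a time gave 0 to 2. For all tested genes the count of 537 became 230 with the replicate block, 22 and 201 with the non-myocyte and immediate early covariates, and 908 and 109 at adjusted p of 0.1 and 0.01. It ranged from 272 to 675 over the animals left out, with 272 without WT replicate 4, 277 without B3AR-Tg replicate 5 and 345 without B3AR-Tg replicate 8. Of the other chaperones 2 passed as reported, 1 with scaling by library size only, at a minimum count of 50 and with the replicate block, 0 with either covariate and at an adjusted p of 0.01, 5 at 0.1, and 0 to 2 over the animals left out. The median of the type C J proteins was 0.041 with scaling by library size only, which moved the median of all tested genes to 0.084, and that of prefoldin was −0.24 with the non-myocyte covariate. Under the non-myocyte covariate the log2 fold change of Nppa was −2.77 (edgeR adjusted p = 0.194).

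The replicate numbers of the titles did not pair the animals. Correlations between animals of the same number were −0.22 to 0.094, 0 of 8 were over 0.1, and 0 WT animals correlated best with their own number. With the number as a replicate block, the log2 fold change of Dnajc2 was −0.40 (edgeR adjusted p = 0.0806), that of Unc45b 0.55 (0.0720) and that of Ero1a −0.55 (0.0650). With this block 4 HSF1 targets in place of 2 had an unadjusted p under 0.05, beside 1780 of 10945 tested genes.

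The sign of the log2 fold change changed under some setting for 15 of 33 genes, and for 0 of the 5 past the threshold. The smallest adjusted p at such a change was 0.359, and the cause was not tested. The values of the log2 fold change at such changes follow. With RLE scaling it was −0.0012 for Dnaja2 and −0.0018 for Hsp90aa1. With upper quartile scaling it was −0.0062 for Dnaja2 and −0.015 for Hsp90aa1. With scaling by library size only it was 0.066 for Hspa8, 0.047 for Dnajb4, 0.053 for Dnajc15 and 0.012 for Hspe1. Without the low-count filter it was 0.0027 for Hspa8. At a minimum count of 50 it was −0.0067 for Dnaja2 and −0.0088 for Hsp90aa1. With DESeq2 it was −0.00097 for Dnaja2 and −0.0022 for Hsp90aa1. With limma voom and sample weights it was −0.014 for Dnaja2, −0.0077 for Bag3, −0.13 for Hspb1, −0.034 for Hsf1, −0.20 for Hsp90aa1 and −0.021 for Hsp90ab1. With the replicate block it was −0.0019 for Dnaja2 and −0.084 for Hsp90aa1. With the non-myocyte marker covariate it was 0.0072 for Hspb7, −0.036 for Hspd1, −0.063 for Dnaja2, −0.18 for Hspa5, −0.035 for Hspb1, −0.0050 for Hsf1, −0.0034 for Hsp90aa1 and −0.062 for Hsp90ab1. With the immediate early covariate it was 0.057 for Dnajc15, −0.045 for Bag3, −0.059 for Hspa1a, −0.040 for Hspa1b, −0.051 for Hspa5, −0.10 for Hspb1 and −0.15 for Hsp90aa1. Over the animals left out the log2 fold changes ran from −0.12 to 0.044 for Hspa8, −0.034 to 0.033 for Dnaja2, −0.21 to 0.024 for Dnajb4, −0.056 to 0.0076 for Dnajc15, −0.088 to 0.14 for Bag3, −0.018 to 0.092 for Hspa5, −0.060 to 0.12 for Hspb1, −0.0098 to 0.087 for Hsf1 and −0.23 to 0.081 for Hsp90aa1.

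The simulated data had this depth and size, and their 200 changed genes were drawn at random from all tested genes. A log2 change of 0.5 was recovered for 30% of the changed genes and one of 1 for 87.5%. The rate for genes with the members' level and spread was not simulated. Most members had smaller differences than these, so the intervals are given beside the calls. Transcript levels say nothing of protein amounts or of phosphorylation, which were not measured. All animals had surgery, so no value here compares pressure overload with its absence.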

Other observations

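Fkbp5, an HSP90 co-chaperone that binds steroid receptors and is known to rise with glucocorticoids, was among the chaperones outside the naming rule and was noticed after its values were seen. In WT it was from 4.71 to 21.3 CPM with a median of 7.40. In WT replicates 1, 4 and 8 it was at 21.3, 17.1 and 20.8 CPM, while the other WT animals were between 4.71 and 8.33. In B3AR-Tg replicate 1 it was at 14.8 CPM, and the other 7 transgenic animals were between 2.21 and 3.72, below every WT animal. Over all animals the log2 fold change was −1.33 and missed the threshold (edgeR adjusted p = 0.0747), and without B3AR-Tg replicate 1 it was −1.98 (edgeR adjusted p = 0.00466). The gene was picked, and that animal left out of it, with the values known, so the smaller p-value does not count as a call.

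Hspa12a, a divergent HSP70, was at 6.28 ± 3.29 CPM in WT against 6.76 ± 5.81 in B3AR-Tg, with 21.0 CPM in B3AR-Tg replicate 4 and 12.9 CPM in WT replicate 1. Dnaja4, a type A J protein, was at 87.7 ± 12.8 CPM in WT against 84.7 ± 26.2 in B3AR-Tg, with 145 CPM in B3AR-Tg replicate 1.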
